A study of Mus musculus with 18 samples.

Results

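The nuclear factor I (NFI) family of transcription factors has 4 members in the mouse, encoded by Nfia, Nfib, Nfic and Nfix, and all 4 were found by symbol among the 23337 genes of the count table. Their levels were followed over 6 harvests of mouse embryonic stem cells that were differentiating toward heart muscle. They carried the name TBX5-FTA as cell line and A2Lox.cre as strain, and all were untreated. By their labels, harvests at D5, D6 and D7 (days 5, 6 and 7) gave cardiac progenitor cells. Harvests at D8, D10 and D15 (days 8, 10 and 15) gave immature cardiomyocytes. Each day had 3 libraries of poly(A) RNA, 18 in all, with total counts of 5257601 to 7122093. All groups share 1 line and none was perturbed. Separate cultures are not stated for the 3 libraries of a harvest, so p-values measure only their spread, which may be technical. The family was singled out with its levels by day already known. Its levels and fold changes are therefore given as a description, with no test, and tests are given only for other genes.

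NFI proteins bind DNA as dimers, as homodimers or as heterodimers of family members, through a conserved domain near the amino end, and recognise a palindrome made of TTGGC and its reverse complement GCCAA. Their carboxy-terminal parts differ and can activate or repress transcription. The family is best known for late steps of development: NFIA and NFIB for the onset of glia formation and for late-born neurons in the central nervous system, NFIB for lung maturation, NFIC for tooth roots, and NFIX for the passage from embryonic to fetal skeletal muscle. The series concerns Hedgehog signalling and the timing of differentiation in heart and neural lineages.

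In the GENCODE M21 annotation (mm10), Nfia (ENSMUSG00000028565.18) lies on the plus strand of chromosome 4 at 97772734 to 98118874 and Nfib (ENSMUSG00000008575.17) on the minus strand of the same chromosome at 82290173 to 82705750. Nfic (ENSMUSG00000055053.18) is on the minus strand of chromosome 10 at 81396186 to 81455635, and Nfix (ENSMUSG00000001911.16) on the minus strand of chromosome 8 at 84699876 to 84800344. Nfia and Nfib are long genes, spanning 346.1 and 415.6 kb, whereas Nfix spans 100.5 kb and Nfic 59.5 kb. Although the proteins are related, 98.7% to 100% of the 50-base stretches of each member's transcripts occur in no other gene's transcript, so reads of that length can be told apart between members. Exons of Nfib overlap no other annotated gene, those of Nfia overlap another gene over 4 bases, those of Nfic over 72 bases and those of Nfix over 141 bases. Counts were per gene, so isoforms were not resolved.

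The RefSeq promoter table (GRCm38.p6, 250 bases before to 50 bases after an annotated start) held 1 window for Nfia, 1 for Nfic and 4 for Nfix. One window of each of these genes is shown because their transcripts were all higher at the last harvest, with any match to the NFI core motif TTGGC, or GCCAA on the other strand, in capitals. The windows are chr4:97581693-97581992 on the plus strand for Nfia, chr10:81427124-81427423 on the minus strand for Nfic and chr8:84772826-84773125 on the minus strand for Nfix. The Nfia window lies upstream of the GENCODE gene model, and the others lie within theirs.
Nfia: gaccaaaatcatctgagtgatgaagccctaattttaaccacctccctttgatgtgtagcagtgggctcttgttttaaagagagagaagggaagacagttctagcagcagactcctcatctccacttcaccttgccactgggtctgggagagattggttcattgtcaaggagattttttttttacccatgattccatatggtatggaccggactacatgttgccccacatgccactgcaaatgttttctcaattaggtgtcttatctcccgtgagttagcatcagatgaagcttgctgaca
Nfic: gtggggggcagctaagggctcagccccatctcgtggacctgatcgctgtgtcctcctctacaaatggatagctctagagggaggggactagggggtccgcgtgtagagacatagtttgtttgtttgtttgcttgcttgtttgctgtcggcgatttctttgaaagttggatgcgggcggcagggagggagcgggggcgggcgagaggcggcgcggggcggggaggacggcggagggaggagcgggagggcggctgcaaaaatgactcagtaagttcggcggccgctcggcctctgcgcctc
Nfix: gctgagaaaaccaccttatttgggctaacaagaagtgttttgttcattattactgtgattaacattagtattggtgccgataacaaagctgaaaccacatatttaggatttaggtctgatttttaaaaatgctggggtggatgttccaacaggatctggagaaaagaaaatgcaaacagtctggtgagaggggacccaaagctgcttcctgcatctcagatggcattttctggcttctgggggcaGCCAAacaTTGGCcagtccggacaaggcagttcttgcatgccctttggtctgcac
The Nfix window shown held the motif 2 times, in opposite orientation and close together, the most matches of the 4 Nfix windows. The windows of Nfia and Nfic held no match, and of the other 3 Nfix windows, 2 held 1 match each. A match to this short motif was found in 46.7% of all 32851 windows. The full palindrome, TTGGC and GCCAA with any 5 bases between them, was in 0.0365% of windows and the GLI motif GACCACCCA, searched on both strands, in 0.253%, and neither was in a window of a member. A match is a match of letters only, and counts per gene do not tell which start was used.

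Nfib showed the widest span of the 3 members that were measured well on every day. Levels here are in CPM, a gene's count relative to the library total after scaling by trimmed means (TMM), with mean ± SD over the 3 libraries of a day. In the libraries of D5, Nfib was at 2.18, 2.33 and 3.21 CPM. It was at 9.33, 9.34 and 9.83 CPM in those of D6 and at 16.8, 17.4 and 21.1 CPM in those of D7. Each day's lowest library was thus above the highest of the day before. The libraries of D8 stood at 61.2, 72.2 and 72.2 CPM, those of D10 at 222.9, 235.2 and 241.6 CPM and those of D15 at 484.7, 493.3 and 523.0 CPM. No day overlapped its neighbour over the whole course. From D5 to D15 the mean of Nfib went from 2.57 ± 0.559 to 500.3 ± 20.1 CPM, a log2 fold change of 7.59 ± 0.12 (SE). Only 1.66% of the 13116 genes tested had a larger fold change over this span. At D8 Nfib had reached 13.7% of its D15 level and at D10 46.6%.

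Nfic also separated at every step. It was at 4.91, 5.17 and 7.28 CPM in the libraries of D5, at 17.8, 19.9 and 20.3 CPM at D6 and at 26.7, 30.8 and 32.7 CPM at D7. The libraries of D8 had 72.0, 74.1 and 79.2 CPM, those of D10 140.8, 150.9 and 158.6 CPM and those of D15 243.7, 258.6 and 259.8 CPM. As with Nfib, all libraries of a day lay above all those of the day before. The log2 fold change of Nfic from D5 to D15 was 5.46 ± 0.11, and 3.81% of genes had a larger one. From D7 on Nfic was nearest of the family to its own end point, with 29.6% of the D15 level at D8 and 59.1% at D10, while at D5 Nfia was nearer (5.59% against 2.28%). A course in which every harvest lies above the one before in all libraries, as for Nfib and Nfic, was found for 114 of the 13116 genes tested (0.869%). The members were chosen with this course in view.

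Nfia had the smallest fold change of the family. Its libraries had 10.4, 12.02 and 17.2 CPM at D5, 16.4, 18.5 and 20.9 CPM at D6 and 24.2, 26.7 and 26.7 CPM at D7. The highest library of D5 was above the lowest of D6, so these 2 days overlapped, and D6 and D7 did not. From D8 on the libraries had 50.8, 56.4 and 66.7 CPM, then 109.1, 116.1 and 122.8 CPM at D10, and 232.8, 233.1 and 241.6 CPM at D15. Each of these days lay apart from the next. The log2 fold change of Nfia from D5 to D15 was 4.16 ± 0.12, with 6.41% of genes above it. The D15 mean of 235.8 ± 5.02 CPM had a coefficient of variation of 2.13%.

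Nfix came last and stayed near the limit of detection until D8. Summed over the 3 libraries of a day, it had 1 count at D5, 9 at D6, 17 at D7 and 15 at D8, against 110 at D10 and 806 at D15. The libraries of D7 ranged from 0.149 to 1.86 CPM and those of D8 from 0.581 to 1.26 CPM, so that D6, D7 and D8 overlapped and no order of these days can be read. In the libraries of D10 Nfix was at 4.06, 6.22 and 8.14 CPM, and in those of D15 at 35.3, 48.2 and 53.4 CPM, both apart from the days before. The D15 level was 56.5 times that of D8 (95% counting interval 34.1 to 101) and 980.4 times that of D5 (interval 175 to 38771). These intervals cover counting error only. The fitted log2 fold change from D5 to D15, 9.42 ± 0.55, rests on the single D5 count, in library MR20, and was 11.16 without that library.

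**Figure D1:**
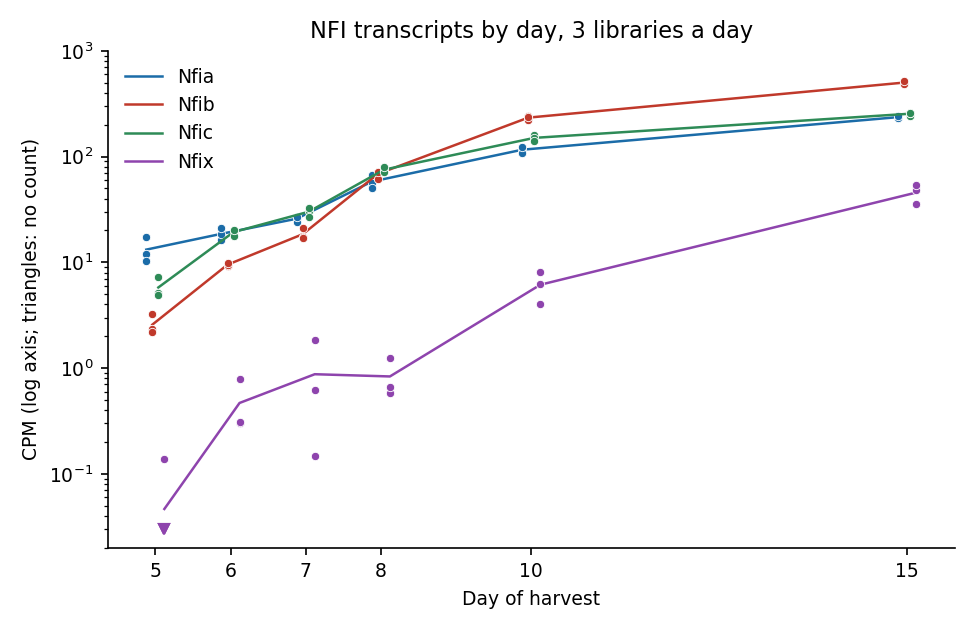
Level of each NFI member by day of harvest, in CPM on a log axis. Points are the 3 libraries of a day, lines join the day means, and triangles mark libraries with no count. Nfib has the steepest course of the 3 members measured well throughout, from 2.57 to 500.3 CPM, and Nfix stays under 2 CPM through D8.

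The members differed in when they changed most. From D5 to D6 the log2 fold changes were 1.87 ± 0.18 for Nfib and 1.74 ± 0.14 for Nfic but 0.50 ± 0.15 for Nfia. From D6 to D7 they were smaller, 0.96 ± 0.12, 0.64 ± 0.11 and 0.48 ± 0.13 in the same order. From D7 to D8, the step at which the label changes from progenitor to cardiomyocyte, they were 1.89 ± 0.09 for Nfib, 1.32 ± 0.09 for Nfic and 1.17 ± 0.12 for Nfia. This was the largest change per day for Nfia, equal within its error to that from D5 to D6 for Nfib, and smaller than that from D5 to D6 for Nfic. Nfix had -0.09 ± 0.65, and 1.06 without library MR27.

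The later steps span more days. From D8 to D10 Nfib had a log2 fold change of 1.77 ± 0.08, or 0.88 per day. Nfia and Nfic had 0.99 ± 0.10 and 1.00 ± 0.08, close to 0.50 per day each. Nfix had a change of 2.91 ± 0.45 in this step and one of 2.87 ± 0.27 in the last, the largest of the family in both. In the last step the others had 1.10 ± 0.07 (Nfib), 1.02 ± 0.10 (Nfia) and 0.76 ± 0.08 (Nfic), which is 0.15 to 0.22 per day. The median over all genes tested was between -0.01 and 0.01 in each of the 5 steps.

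Counts of members whose libraries did not overlap can be set beside all genes. All libraries of the later day were above all of the earlier day for 3 of 4 members from D5 to D6, against 25.2% of genes. The count was 3 of 4 from D6 to D7 (20.7% of genes) and 3 of 4 from D7 to D8 (18.8%). It was 4 of 4 from D8 to D10 (22.0%), 4 of 4 from D10 to D15 (29.2%) and 4 of 4 from D5 to D15 (41.2%). The exceptions were Nfia in the earliest step and Nfix in the following 2 steps. From D5 to D6 Nfix was counted as apart on 1 count at D5 and 9 at D6, near the limit of detection. Since the members were chosen on these levels, the counts only describe them.

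**Figure D2:**
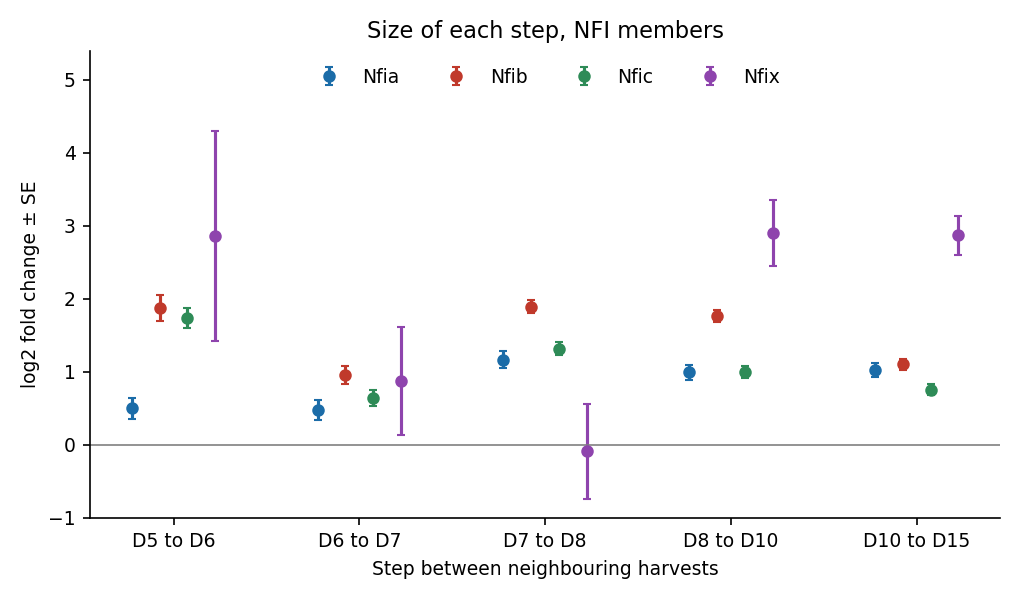
Log2 fold change (± SE) of each NFI member between neighbouring harvests, from the fit of all 18 libraries. Nfib is the highest of the 3 well-measured members in each step, and Nfix has its 2 well-measured changes, near 2.9, after D8.

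To compare levels between members, CPM were divided by the length of annotated exons of each gene in kb. The sum of the 4 members on this scale went from 2.26 ± 0.511 CPM per kb at D5 to 21.3 ± 1.01 at D8 and 99.6 ± 3.75 at D15. At D5 Nfia made up 53.2% ± 2.18 of the sum and Nfic 38.6% ± 1.73, with Nfib at 7.86% ± 2.33. From D6 to D8 Nfic held the largest share, between 53.1% and 54.9%. At D10 it held 45.5% ± 1.89, still the largest on this scale. The share of Nfib was higher on each later day, at 11.96% ± 0.480 at D6, 14.9% ± 0.774 at D7, 21.4% ± 1.08 at D8, 31.4% ± 1.66 at D10 and 33.6% ± 0.936 at D15. The share of Nfia was 24.9% ± 3.05 at D8, overlapping that of Nfib, and 21.4% ± 1.53 at D10, apart from it.

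At D15 Nfic made up 38.5% ± 0.835, Nfib 33.6%, Nfia 21.7% ± 0.468 and Nfix 6.21% ± 1.06 of the per-length sum. The shares of these members did not overlap between libraries. Nfic thus held a like share at D5 and D15, while Nfia and Nfib moved in opposite directions. The order of Nfic and Nfib depends on the length used: with the longest transcript of each gene, D15 shares were 42.6% for Nfib and 31.7% for Nfic, and with the longest coding sequence 44.2% and 27.8%. The order of Nfia above Nfib at D5 and Nfib above Nfia at D15 was the same with all 3 lengths.

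**Figure D3:**
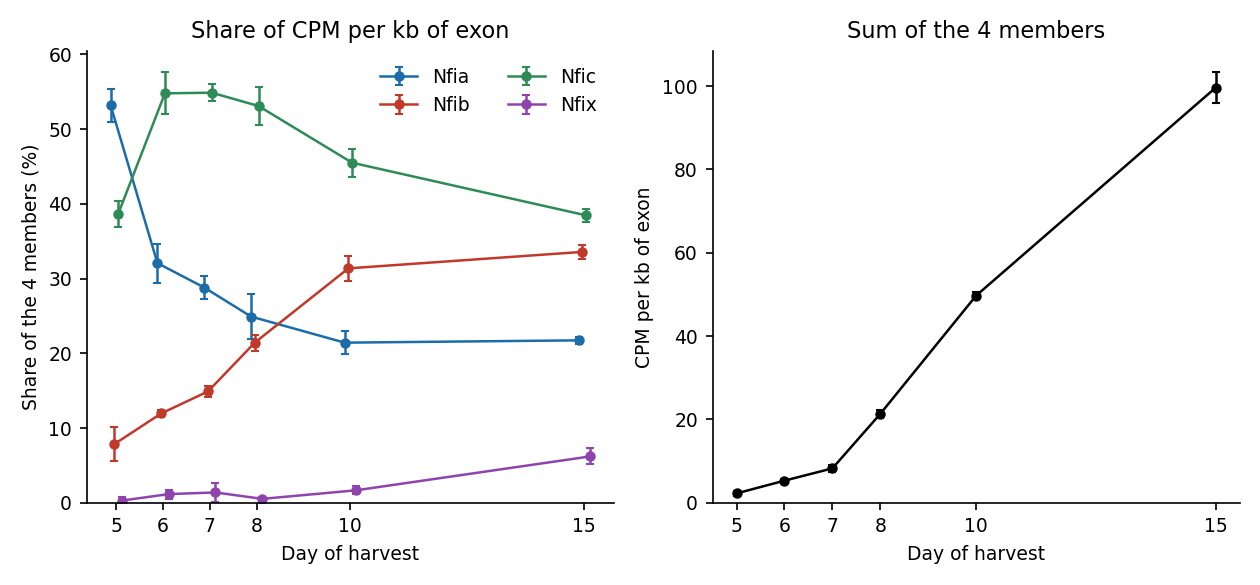
Left, share of each NFI member in the family sum of CPM per kb of exon by day, mean ± SD of 3 libraries. Right, the sum of the 4 members on the same scale (mean ± SD). Nfia goes from 53.2% to 21.7% and Nfib from 7.86% to 33.6%, while the sum goes from 2.26 to 99.6 CPM per kb.

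Markers of several cell types moved over the same days. All 8 cardiomyocyte markers (Tnnt2, Actn2, Myh6, Myl7, Nkx2-5, Tnni1, Ttn and Ryr2) rose from D5 to D15, beside 40.3% of all genes tested, and their summed level went from 271.5 to 322.0 CPM at D5 to 4110 to 6883 CPM at D15. All 8 fibroblast and mesenchyme markers rose as well, and their sum went from 415.6 to 455.7 CPM at D5 to 38150 to 47213 CPM at D15. Of 6 epicardium markers 5 rose, with a sum of 360.8 to 396.7 CPM at D5 and 2124 to 2235 CPM at D15. Of 6 endothelium markers 5 rose, with a sum of 122.4 to 145.8 CPM at D5 and 296.8 to 448.7 CPM at D15. The mean endothelium sum was highest at D7, at 440.4 CPM, and was 270.6 CPM at D10 and 380.5 CPM at D15. Of 5 smooth muscle markers 2 rose and 3 fell. These counts are from edgeR's quasi-likelihood test at an adjusted p under 0.05. The libraries named cardiomyocytes thus held transcripts of the mesenchymal, epicardial and endothelial lists too, as did the progenitor libraries. Which cells these transcripts came from was not tested. The part of each cell type in the NFI levels was not tested, and in bulk RNA more cells of a type and more RNA per cell cannot be told apart.

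Neural and skeletal muscle markers were mixed. Among 8 neural and glial markers Olig2 had no count on any day, and Gfap and S100b were at 0.18 and 0.29 CPM or less on every day. The 3 of this list that were tested fell from D5 to D15, beside 37.7% of all genes tested. Its sum at D15, 128.0 to 140.5 CPM, was mostly Nes, which many progenitor cells express. The mean sum of the list was 269.9 CPM at D5, 50.0 CPM at D7 and 133.8 CPM at D15. Nes was at 253.5, 43.4 and 130.5 CPM on these days. Myod1, which sets skeletal muscle fate, had no count on any day, and Myf5 and Pax7 had none at D15. Myog had no count before D10, then 2 at D10 and 7 at D15, and Myh3 had 5 at D15. The 2 of this list that were tested rose from D5 to D15, beside 40.3% of all genes tested. The myosin gene Myh8 went from 0 to 95.9 CPM and the actinin gene Actn3 from 3.98 to 32.7 CPM. The skeletal muscle list summed to 101.8 to 161.8 CPM at D15. The endoderm and hepatic list summed to 62.6 CPM in D15 library MR35 but to 3.18 and 6.08 CPM in the other D15 libraries, a difference that Nfia, Nfib and Nfic did not share. Nfix in MR35 was between the other libraries of that day.

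From D6 on the libraries of a day differed more in the summed cardiomyocyte markers than in Nfia, Nfib and Nfic, whereas at D5 the highest sum was 1.19 times the lowest against 1.47 to 1.66 times for these members. On each of the 6 days the marker sum was lower the higher the running number of the library. At D8 the summed cardiomyocyte markers were 2316, 1856 and 998.1 CPM in libraries MR28, MR29 and MR30, so the highest was 2.32 times the lowest. Nfib in the same libraries was at 72.2, 61.2 and 72.2 CPM, a ratio of 1.18, and the ratios of Nfia and Nfic were 1.31 and 1.10. Nfia was highest in MR28 and lowest in MR30, the order of the cardiomyocyte sum. Nfic was lowest in MR29 and highest in MR30, the order of the fibroblast sum. Nfib was lowest in MR29 and level between MR28 and MR30. At D10 the marker sum differed 2.26-fold between libraries MR31 and MR33, against 1.08-fold to 1.13-fold for the highest over the lowest library of Nfia, Nfib and Nfic. At D15 the marker sum differed 1.67-fold, against 1.04-fold for Nfia, 1.08-fold for Nfib and 1.07-fold for Nfic. The epicardium sum was as even as these members at D15, at 1.05-fold, and the fibroblast sum differed 1.24-fold.

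With the single cardiomyocyte markers the picture was the same. Their median coefficient of variation at D15 was 27.9%, against 10.01% for the fibroblast list and 7.84% for the epicardium list. Nfia, Nfic and Nfib had 2.13%, 3.52% and 4.01%. Among 11182 tested genes with at least 5 CPM at D15, 95.03% had a larger coefficient than Nfia, 87.3% a larger one than Nfic and 84.0% a larger one than Nfib. At D5 the members were less even, and 1.73% of such genes had a larger coefficient than Nfia (26.9%). These ranks were not matched for level. A coefficient without counting error, fitted over all 18 libraries, was 7.72% for Nfia, and 61.3% of tested genes had a larger one. For Nfib 85.5% of tested genes had a larger one, and for Nfic 84.4%.

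Nfix was less even. At D10 it was highest in MR31 and lowest in MR33, the order of the cardiomyocyte sum. At D15 it was lowest in MR34, at 35.3 CPM, where the cardiomyocyte sum was highest at 6883 CPM, and highest in MR36, at 53.4 CPM, where that sum was lowest at 4110 CPM. That was the order of the fibroblast sum, at 38150 CPM in MR34 and 47213 CPM in MR36. With 3 libraries a day these orders are a description.

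**Figure D4:**
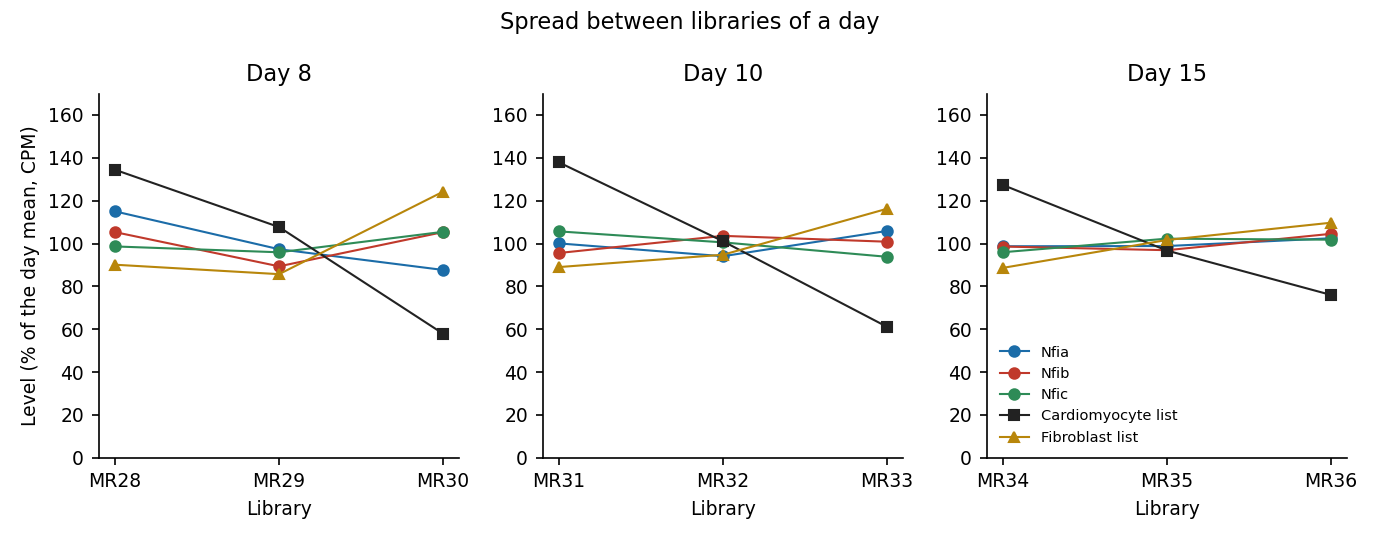
Level of Nfia, Nfib, Nfic and the summed cardiomyocyte and fibroblast marker lists in each library of D8, D10 and D15, as percent of the mean of that day in CPM. The cardiomyocyte sum slopes from 2316 to 998.1 CPM between the D8 libraries, where Nfia slopes the same way. This sum differs 2.32-fold at D8, 2.26-fold at D10 and 1.67-fold at D15. The NFI members shown differ 1.10-fold to 1.31-fold at D8 and at most 1.13-fold at D10 and D15.

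Genes tied to NFI factors elsewhere went both ways from D5 to D15. In 5 lists (regulators, partners, glial and neural targets, skeletal muscle targets, and temporal factors of the neural tube) 27 of 42 genes had enough counts to be tested. By edgeR's quasi-likelihood test 13 of the 27 rose, beside 40.3% of all genes tested, and 9 fell, beside 37.7%. In either direction 78.0% of all genes passed. The median log2 fold change of the 27 was 0.48, against 0.03 for all genes. In the single steps, 7 rose and 3 fell from D7 to D8 (12.6% and 11.6% of all genes), 4 rose and 2 fell from D8 to D10 (17.3% and 13.9%), and 9 rose and 12 fell from D10 to D15 (26.4% and 24.4%). Without library MR30, MR31 or MR32 in turn, 2 genes rose from D8 to D10.

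Among 5 tested regulators that act upstream of NFI genes in other tissues, 2 rose and 1 fell from D5 to D15. Junb, an AP-1 subunit that activates Nfix in muscle cells, was at 4.12 ± 0.468 CPM at D5 and rose by 2.44 ± 0.28 log2 units to 22.5 ± 3.13 CPM (edgeR, adjusted p = 4.84e-09). Rbpj, the DNA-binding partner of Notch, rose by 0.48 ± 0.10 (adjusted p = 1.10e-04). Pax6, a neural and eye factor, fell from 31 counts to 1, a ratio of 25.5 (interval 4.25 to 1039), and was not called when D5 and D15 were fitted alone. Sox9, which switches on Nfia in neural progenitors, was at 2.25 ± 0.302 CPM at D5, 28.3 CPM at D8 and 1.63 ± 0.671 CPM at D15, with no call for D15 against D5 (adjusted p = 0.458 by edgeR). It rose from D7 to D8 (adjusted p = 4.95e-05) and fell from D10 to D15 (adjusted p = 3.61e-08), a step in which Nfia had a log2 fold change of 1.02. The receptor gene Notch1 was at 37.0 ± 2.84 and 33.9 ± 3.81 CPM at the ends (edgeR adjusted p = 0.488), but at 12.3 ± 3.38 CPM at D7. By edgeR it rose from D7 to D8 by 0.95 ± 0.19 (adjusted p = 5.24e-04) and from D10 to D15 by 0.43 ± 0.17 (adjusted p = 0.0369).

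Of 4 tested partners of NFI proteins 3 rose. Nr3c1, the gene of the glucocorticoid receptor, which works with NFI at hormone-responsive genes, went from 24.2 ± 2.83 CPM at D5 to 196.1 ± 15.7 CPM at D15, a log2 fold change of 3.02 ± 0.11 (edgeR adjusted p = 1.43e-20). Ski, a corepressor gene, rose by 0.64 ± 0.09. The general factor gene Sp1 was at 191.6 ± 9.64 and 184.5 ± 7.84 CPM (edgeR adjusted p = 0.492). Foxa1, Foxa2, Nkx2-1 and Sox10 were below the expression filter.

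Of 7 tested glial and neural targets 3 rose and 3 fell. Zcchc24, a target of NFIA and SOX9 in glial precursors, went from 79.0 ± 5.17 to 166.2 ± 5.80 CPM (1.07 ± 0.07 log2 units, edgeR adjusted p = 2.52e-14). The water channel gene Aqp4 rose by 3.83 ± 0.61, to 4.25 ± 0.715 CPM, and the glutamate transporter gene Slc1a3 by 0.53 ± 0.13. Slc1a3 was highest at D7, at 210.6 ± 26.3 CPM, and fell from D8 to D10 by 0.62 ± 0.11 and from D10 to D15 by 1.07 ± 0.12. Ezh2, a Polycomb methyltransferase gene that NFIB represses in cortical progenitors, fell from 192.0 ± 11.7 to 54.5 ± 3.95 CPM (-1.81 ± 0.07, adjusted p = 3.05e-19 by edgeR). Hes1, a Notch effector gene that NFIA represses in the cortex, fell by 1.09 ± 0.19 and Apcdd1, a Wnt inhibitor gene, by 0.34 ± 0.13. Hes1 was already at 12.3 ± 1.42 CPM at D7 and stood at 12.9 ± 2.43 CPM at D15. Apcdd1 was lowest at D10, at 13.1 ± 1.72 CPM, and rose from D10 to D15 by 1.55 ± 0.15 (edgeR adjusted p = 9.31e-10). Fabp7, a radial glia gene, had 4 counts at D15 against 2 at D5 (ratio 2.43, interval 0.349 to 26.9).

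Of 5 tested genes linked to NFIX in fetal skeletal muscle, 4 rose and 1 fell. Ckm, the muscle creatine kinase gene, had 2011 counts at D15 and none at D5, so that it was at least 815-fold higher against a floor of 3 counts over the group. Eno3, the muscle enolase gene, went from 67.7 ± 0.939 to 163.2 ± 43.1 CPM (1.27 ± 0.26, edgeR adjusted p = 5.48e-04), and Myh7, a slow myosin gene that NFIX represses in fetal muscle, rose by 1.67 ± 0.46. Mstn, the myostatin gene, had no count at D5 and 24 at D15, at least 9.73-fold higher. It was highest at D10, with 96 counts and 5.46 ± 0.789 CPM. Its log2 fold change from D10 to D15 was -1.98 ± 0.42 (edgeR adjusted p = 2.29e-04). Nfatc4, a calcineurin-responsive factor gene that NFIX represses in fetal muscle, fell by 0.93 ± 0.09 from D5 to D15 (adjusted p = 3.41e-10). Ckm, Eno3 and Myh7 are also expressed in heart muscle, and the cardiomyocyte markers rose over the same days.

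Factors that mark early or late neurons beside the NFI family did not share its course. Of 6 tested, Zfhx4 rose by 0.69 ± 0.21 (edgeR adjusted p = 0.00386) and 4 fell. These were Tcf4 by 0.59 ± 0.09, Zfhx3 by 0.71 ± 0.11, Nr4a2 by 1.29 ± 0.42 and Zfhx2 by 0.83 ± 0.27. The early-neuron factor gene Onecut2 was at 0.988 ± 0.525 and 0.732 ± 0.483 CPM (edgeR adjusted p = 0.575). The late-neuron factor genes Neurod2 and Neurod6 had no count in any library.

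Genes with the most similar courses were ranked by the root mean square difference between 6 day means of log2 CPM, each course centred on its own mean. For Nfia the closest of 10341 candidates was Hrc, a calcium-binding protein gene of the sarcoplasmic reticulum, at a difference of 0.12 log2 units. Tgfbr2, the type II receptor gene of TGF-beta, followed at 0.18, then Mtus1 at 0.19, Tmem176b at 0.20 and Prkcdbp, a caveola gene, at 0.21. Hrc was at 101.3 ± 39.8 CPM at D15, a far wider spread between libraries than the 235.8 ± 5.02 CPM of Nfia. Tgfbr2 was at 12.1 ± 0.195 CPM at D5 and 243.3 ± 27.1 CPM at D15.

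For Nfib the closest were Fcgrt, the neonatal Fc receptor gene, at 0.24, and the heart and muscle genes Actn2 (sarcomeric alpha-actinin, 0.28), Kcnj5 (an atrial potassium channel, 0.29) and Pygm (muscle glycogen phosphorylase, 0.30), followed by Rarres2 (chemerin) at 0.31. For Nfic they were C1qtnf6 at 0.16, Enpp4 at 0.18, the collagen gene Col16a1 at 0.18, Bicc1, an RNA-binding protein gene, at 0.20 and Tecrl, a gene of heart muscle, at 0.25. For Nfix they were Mgst1 at 0.24, Dock8 at 0.36, the collagen gene Col6a2 at 0.45, Gxylt2 at 0.48 and Cd34, a marker of endothelial and stromal progenitors, at 0.50. The closest genes thus included both muscle and matrix genes, and none was shared between members.

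The family members were farther from each other than from these genes, which were picked as the closest of all candidates. That order therefore says little about how alike the members are. The closest pair was Nfia and Nfic, at 0.52 log2 units, with 361 of the 13116 genes tested closer to Nfia than Nfic was. Nfib and Nfic differed by 0.79, with 88 genes closer to Nfib. The other pairs differed by 1.03 to 1.15, with 197 (Nfix from Nfib) to 2759 (Nfib from Nfia) genes closer. All of these values share the same 18 libraries.

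**Figure D5:**
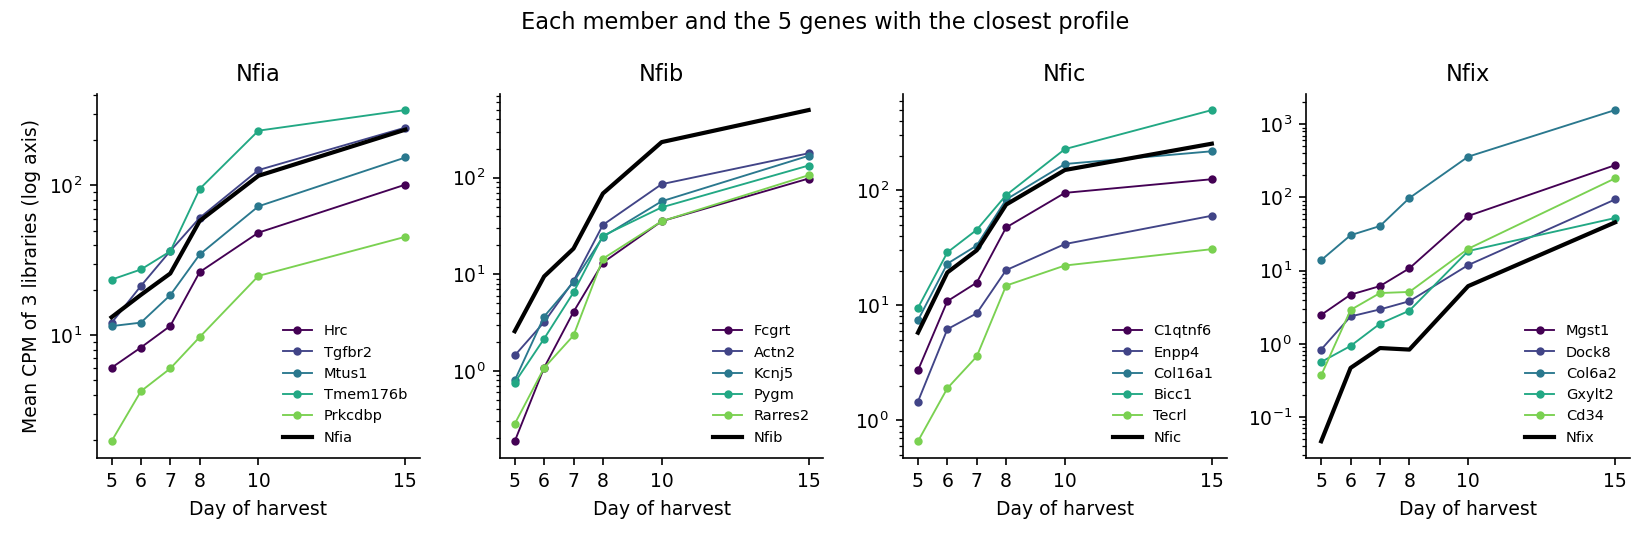
Mean CPM by day (log axis) of each NFI member, in black, and of the 5 genes with the closest centred course, in colour. Curves run nearly parallel for Nfia and Nfic, where differences are 0.12 to 0.25 log2 units, and less so for Nfix, where they reach 0.50.

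The nearest tested genes on either side of each member, a comparison added after the data were opened, are a further description. Of the 8 neighbours 1 rose and 4 fell from D5 to D15 by edgeR's test, beside 40.3% and 37.7% of all genes. Zdhhc21, 93.0 kb from Nfib, fell by 0.84 ± 0.11 (adjusted p = 3.74e-08), and Mpdz, 847.4 kb away on the other side, rose by 0.24 ± 0.08 (adjusted p = 0.0086). Celf5, 3.59 kb from Nfic, fell by 3.43 ± 0.49 (adjusted p = 2.16e-07), and Dohh, 7.83 kb away, by 0.65 ± 0.15. Trmt1, which ends 0.068 kb from Nfix, fell by 1.47 ± 0.10 (adjusted p = 2.32e-14). Dand5 beyond Nfix, and Cyp2j6 and Tm2d1 on either side of Nfia, had log2 fold changes of 0.41 ± 0.39, 0.01 ± 0.14 and 0.11 ± 0.16 and passed no threshold.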

How the data were processed

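Raw counts per gene symbol were used as the authors deposited them. Reads were aligned with STAR to mm10, per the submitters' processing notes. Libraries came from a TruSeq RNA v2 kit and single-end reads of 50 bases, per the labels' protocols, which call the reads stranded. Versions, the counting tool, its annotation and its strand setting are not given in the sources used here. Of 21 count columns, 18 were matched to a day by name and 3 that matched no sample were not used. The columns carry no replicate number.

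The whole table was fitted with edgeR 4.0.16 (R 4.3.3): filterByExpr (minimum count 10) kept 13116 of 23337 genes, among them all 4 members, TMM factors scaled the libraries, and a mean per day was fitted with 12 residual degrees of freedom. Other genes were called by quasi-likelihood F tests at a Benjamini-Hochberg adjusted p under 0.05 over all genes tested. SE is the unshrunken log2 fold change divided by the square root of F. Profiles used log2 CPM with a prior count of 2 and genes with a mean of at least 2. Lists held 101 entries, all found by symbol. For each list up to 4 genes with the smallest p for D15 against D5 and any called against the majority were named, and other list genes were named after their values were seen. The values of 1 list gene are not reported here. The floor for groups at 0 was 3 counts over the group. Lengths, coordinates and overlaps are from GENCODE M21, promoters from RefSeq GRCm38.p6. Pairs of libraries of a day differed by a chi-square over degrees of freedom of 2.21 to 9.23, so none were copies. Members and lists were chosen with earlier results of these data known. The fit was tested on simulated data. As alternatives, DESeq2 1.42.0, limma-voom 3.58.1, RLE or upper quartile scaling, other filters, the compared days alone, each library left out, other lengths and other measures of likeness were run. Figures were made with Python 3.11.15 and matplotlib 3.10.9.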

Additional observations from a re-analysis of the deposited data

How the results depend on the processing

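No paired analysis was possible because the columns give no replicate number, and libraries were not paired by column order. The cardiomyocyte sum was lower with higher running number on every day. The fit and its p-values took no account of that order. Over RLE or upper quartile factors, DESeq2, limma-voom, other filters and the compared days alone, the D5 to D15 log2 fold change was 4.14 to 4.197 for Nfia, 7.56 to 7.63 for Nfib and 5.43 to 5.49 for Nfic. For Nfix it was 8.80 with limma-voom and 9.86 with DESeq2, the lowest and highest of these, and the filter of 1 CPM in 9 libraries removed Nfix. Leaving out 1 library at a time gave 4.01 to 4.39 for Nfia, 7.48 to 7.78 for Nfib, 5.35 to 5.65 for Nfic and 8.97 to 11.16 for Nfix. The number of genes of the NFI lists that rose from D8 to D10 was 2 to 5. Among regulators 0 fell from D5 to D15 with these days fitted alone and 2 without a filter, and among partners 1 fell without a filter. Counts over all 5 lists in the other steps and over all genes stayed within 1.5 times under every alternative run. With the longest transcript as length, the share of Nfia was 19.2% at D15, that of Nfib 11.2% at D5 and 42.6% at D15, and that of Nfic 35.7% and 31.7%. With the longest coding sequence these were 59.8% and 23.4% for Nfia, 10.8% and 44.2% for Nfib, 29.2% and 27.8% for Nfic, and 4.64% at D15 for Nfix. The named closest genes depend on the measure. By Pearson correlation of day means 0 of the 5 were kept for Nfia, Nfib and Nfix and 2 for Nfic, a prior count of 0.5 kept 3 for Nfib and 2 for Nfix, and no floor on the mean kept 2 for Nfix. Leaving out 1 library kept 3 to 5 for each member. Through D8 depth limits Nfix, with at most 17 counts a day. The cause of these differences was not tested.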
